A study of Mus musculus with 15 samples.

Results

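Late and early control fibroblasts were the mouse embryonic fibroblasts (MEFs) that received scrambled guides, and they were compared to see how open chromatin differed with time in culture after transduction when no gene was targeted. The 3 late and 3 early control libraries were taken by their labels, and they are 6 of the 15 libraries of the series. All cells carry the background labelled C57/B16. The late control cells had been infected with a lentiviral CRISPRa-VPR-mCherry construct, a Cas9 that cannot cut fused to the VPR activator and marked by a red reporter, together with scrambled guides, and were sorted as mCherry+/THY1+. The early control cells carried the same construct and guides, were sorted in the same way, and were collected sooner. The sample labels give day 10 for the late libraries, day 3 for early controls 1 and 2 and day 4 for early control 3, whereas the description of the series gives days 11 and 4, so the groups are called late and early. Virus, activator and guide are thus shared by both control groups. The other libraries came from late and early cells with guides against Fosl2, which encodes Fra2, a member of the AP-1 factors (3 each, labelled Fra2+), which serve here for comparison, and, in 3 libraries, from cells treated with an inhibitor of Ezh2. The labels do not say that the replicates are separate cultures, and a p-value here reflects only how these libraries vary, possibly for technical reasons.

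Omni-ATAC-seq measures how readily a transposase inserts adapters into chromatin, so that active promoters and enhancers give peaks. Fibroblasts in culture respond to viral nucleic acid through sensors that lead to interferon, and interferon acts through a complex of transcription factors that includes IRF9 on a promoter element, the interferon-stimulated response element, at genes of antiviral defence. They also respond to plating, serum and handling with immediate early genes such as Fos, Jun and Egr1, whose products are transcription factors that are made within minutes and lost soon after. Over longer culture, fibroblasts build and remodel extracellular matrix.

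The libraries held 13.3, 17.3 and 17 M (mega) reads in peaks in late controls 1 to 3, against 19.4, 14 and 6.75 M in early controls 1 to 3, over 206349 tested peaks. Early control 3, the shallowest and the one labelled day 4, stood apart. Its log2 levels correlated with those of the other early controls at 0.783 and 0.789, against 0.925 between these 2 libraries and 0.911 to 0.931 among late controls. On the first principal component of the 6 libraries (42.5% of variance) it lay at 237 and the others between -78.5 and -14.6, and calls are therefore given with and without it. At gene starts of 6 fibroblast markers (Thy1, Pdgfra, Col1a1, Col1a2, Prrx1, Dcn) accessibility summed to 52.1 to 64.7 CPM (counts per mega reads in peaks) in late controls and 49.5 to 68.8 CPM in early controls. For other cell types the summed levels overlapped between the groups, except that the macrophage genes Csf1r and Spi1 summed to 18.5 to 19.2 CPM in late controls and 15.4 to 17.9 CPM in early controls. That gap came from Csf1r (9.43 CPM late and 6.86 CPM early on average), whereas Spi1 had 9.39 CPM late and 9.59 CPM early, and neither was called. Of the marker start peaks, only that of the epithelial gene Grhl2 was called. It averaged 2.48 CPM late and 4.3 CPM early (log2 -0.85 ± 0.25, adjusted p = 0.039, edgeR), and -0.97 without early control 3. No peak lay at the starts of Ptprc, Adgre1, Pecam1, Emcn, Krt5, Krt8, Gfap, Myog or Acta1, and the part of other cells in the results was not tested. In bulk libraries, fewer cells of a kind and less open chromatin per cell cannot be told apart.

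Late control cells had 4218 peaks that were higher (2.04% of those tested) and 2548 that were lower (1.23%) than in early control cells, 3.28% in all, at an adjusted p under 0.05 by the quasi-likelihood test of edgeR. The changes were moderate: the median log2 fold change was 0.76 among higher peaks and -0.98 among lower peaks, and 15.4% of higher but 46.7% of lower peaks passed 1 on the log2 scale. Median levels of the higher peaks were 7.22 CPM late and 4.14 CPM early, and those of the lower peaks 2.19 CPM late and 4.35 CPM early. The late and early libraries did not overlap at 96.3% of higher and 90.6% of lower peaks, against 9.57% and 8.34% of all tested peaks that separated in these directions. Without early control 3, 75.4% of the higher and 73.1% of the lower peaks were called again, 0 were called the other way, and the counts were 4698 (2.28%) higher and 3411 (1.65%) lower. The counts were 2017 higher and 1322 lower without early control 2, 1463 and 836 without late control 2, and 2499 and 1411 without late control 3. They were 3069 and 1747 without late control 1, and 5456 and 3229 without early control 1. Counts for gene lists under these settings, given below, are to be read against these counts of all peaks. The split between directions depends on the scaling: 62.3% of called peaks were higher with TMM factors over all peaks, and 80.8% with factors from gene-start peaks. The latter gave 8065 higher and 1915 lower peaks. Over summed counts per gene, taken from all peaks nearest to it within 100 kb, 450 genes were higher (2.45%) and 382 lower (2.08%) of 18349. Those gene counts came to 705 (3.84%) and 655 (3.57%) without early control 3, 273 and 248 without early control 2, 341 and 252 without late control 1, 194 and 150 without late control 2, and 249 and 195 without late control 3. A fit of only the 6 control libraries gave far fewer calls, with 688 higher and 445 lower peaks and 3 higher and 24 lower genes. It has fewer libraries from which to estimate the spread, and the gene lists were not counted under it.

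A group of 9 interferon-induced genes had peaks that were less accessible in late control cells, with 8 of the 15 lower peaks at gene starts. Of 333 tested peaks nearest to the interferon and nucleic acid sensing genes, 15 were lower (4.5%, against 1.23% of all peaks) and 5 higher (1.5%, against 2.04%). At gene starts, 8 of 68 of these peaks were lower (11.8%, against 0.726% of all gene-start peaks) and 0 were higher. The median log2 fold change over the 333 peaks was only -0.06, against -0.01 over all peaks, and the lower calls lay at 9 of the 44 genes with a peak. The lower peaks belonged to Isg15 (4 peaks), Rsad2, Irf9 and Bst2 (2 each), and Ifit1, Ifit3, Irf7, Zbp1 and Ifih1 (1 each). The count of lower peaks was 9 without late control 2 and 17 without early control 3. Of all peaks, 836 and 3411 were lower without these libraries. At gene starts the count fell to 4 without late control 1, where 95 of all gene-start peaks were lower. With TMM factors from gene-start peaks 11 peaks of the list were higher and 13 lower, and at gene starts 1 was higher and 8 were lower. Under that scaling 8065 of all peaks were higher and 1915 lower, and 229 and 155 of all gene-start peaks.

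The promoters of 4 of these genes are shown because each holds the interferon-stimulated response element, searched on both strands as GAAA, any 2 bases and GAAA, inside a peak that was lower in late cells. Each line gives the 250 bases before the gene start, 5′ to 3′ on the strand of the gene, from RefSeq on GRCm38.p6, with capitals on the bases of the element in either direction; matches may overlap. The windows are chr4:156200819-156201068 (minus strand) for Isg15, chr19:34640639-34640888 (plus) for Ifit1, chr19:34583279-34583528 (plus) for Ifit3 and chr12:26456453-26456702 (minus) for Rsad2.
Isg15: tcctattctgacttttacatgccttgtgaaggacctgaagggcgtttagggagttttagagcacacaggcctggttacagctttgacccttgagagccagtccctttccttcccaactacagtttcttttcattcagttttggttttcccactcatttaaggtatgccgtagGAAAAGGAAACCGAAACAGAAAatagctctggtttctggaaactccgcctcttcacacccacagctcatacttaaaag
Ifit1: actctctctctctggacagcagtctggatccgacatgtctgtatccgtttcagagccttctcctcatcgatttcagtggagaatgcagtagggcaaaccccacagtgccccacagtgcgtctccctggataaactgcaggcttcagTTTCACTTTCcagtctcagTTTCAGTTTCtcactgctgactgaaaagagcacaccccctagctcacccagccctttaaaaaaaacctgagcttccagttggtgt
Ifit3: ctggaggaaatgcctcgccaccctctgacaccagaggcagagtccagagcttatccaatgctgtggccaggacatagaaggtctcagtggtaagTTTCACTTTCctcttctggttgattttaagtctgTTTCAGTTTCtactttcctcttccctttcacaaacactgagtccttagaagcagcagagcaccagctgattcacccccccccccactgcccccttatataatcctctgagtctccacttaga
Rsad2: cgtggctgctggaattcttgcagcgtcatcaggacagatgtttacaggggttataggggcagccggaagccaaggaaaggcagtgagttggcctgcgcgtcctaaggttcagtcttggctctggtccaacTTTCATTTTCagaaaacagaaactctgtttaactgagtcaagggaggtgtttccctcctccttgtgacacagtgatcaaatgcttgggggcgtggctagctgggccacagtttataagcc
Isg15 holds 3 overlapping matches, Ifit1 and Ifit3 hold 2 each and Rsad2 holds 1, with the match nearest to the gene start beginning 66, 85, 122 and 120 bases before it. Of all 32851 RefSeq promoter windows of this length, 2.98% hold the element. It was found in 17 of 118 windows (14.4%) under a peak that was lower late, in 1 of 54 (1.85%) under a peak that was higher late, and in 354 of 15246 (2.32%) under a tested peak that was not called. Irf7, whose window also lay under a lower peak, held 0 matches. Irf9, Zbp1, Bst2 and Ifih1 were not among the 17 genes with the element under a lower peak. A match is a description of the letters and does not show that a factor was bound.

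Isg15, which encodes a ubiquitin-like protein that interferon induces strongly, showed the change at each of its 4 peaks. The peak at its start (chr4:156200599-156201100, mm10) stood at 2.54, 4.34 and 5.24 CPM in late controls, against 12.7, 10.6 and 8.4 CPM in early controls. All 3 late libraries lay below all 3 early ones, and the log2 fold change was -1.40 ± 0.19 (SE; adjusted p = 3.74e-06, edgeR). Summed over the 4 peaks, Isg15 had 7.31, 8.33 and 11.5 CPM late and 25.4, 27.1 and 26.5 CPM early, a log2 fold change of -1.53 ± 0.13 that was the most negative among genes named from summed counts.

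Ifit1 and Ifit3 encode proteins that bind viral RNA or other IFIT proteins. The Ifit1 start peak (chr19:34640569-34641070) held 3.88, 3.44 and 6.03 CPM in late controls and 8.42, 8.56 and 8.68 CPM in early controls, a log2 fold change of -0.93 ± 0.18. The peak at Ifit3 (chr19:34583045-34583546) held 2.17, 1.99 and 1.77 CPM late and 4.67, 3.34 and 3.22 CPM early (-0.97 ± 0.25). Neither gene's groups overlapped. Rsad2 encodes viperin, an enzyme that makes a chain-terminating nucleotide, and its start peak (chr12:26456204-26456705) held 1.79, 2.11 and 2.5 CPM late and 4.29, 5.22 and 4.62 CPM early (-1.13 ± 0.24, adjusted p = 0.00314, edgeR). The family member Ifit3b, which lies beside them, had 3.73, 3.5 and 3.9 CPM late and 7.24, 6.89 and 7.98 CPM early. Other promoters with the element and a lower peak, picked after their values were seen, were those of the antiviral genes Trim30a (-0.68), Irgm1 (-0.59), Gbp7 (-0.99), Ddx60 (-0.71) and Oas1g (-1.23, not called without early control 3).

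Among the regulators, Irf9, which encodes a DNA-binding subunit of the factor complex that interferon activates, had 1.34, 0.724 and 2.68 CPM at its start in late controls, against 3.49, 3.34 and 5.6 CPM in early controls (chr14:55604836-55605337, log2 -1.32 ± 0.32). Irf7, which amplifies interferon production, had 9.19, 11.9 and 11.5 CPM late and 18.6, 17.3 and 14 CPM early (-0.62 ± 0.16, adjusted p = 0.0165, edgeR). Zbp1, a sensor of Z-form nucleic acid, stood at 0.896, 1.69 and 1.4 CPM late and 2.2, 3.19 and 3.08 CPM early (-1.03 ± 0.28). These 3 start peaks were lower in late cells with no overlap between the groups. The peaks that went the other way included those nearest to Irf1 (18.8 kb from the gene) and Irf2 (28 kb), outside the genes. Irf2, a factor that competes with Irf1 for the same element, had 3.51, 3.98 and 5.42 CPM in late controls at this peak (chr8:46711451-46711952) and 2.47, 1.23 and 1.4 CPM in early controls (1.26 ± 0.26, adjusted p = 0.0027, edgeR). A nearest gene need not be the gene that a peak serves.

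**Figure D1:**
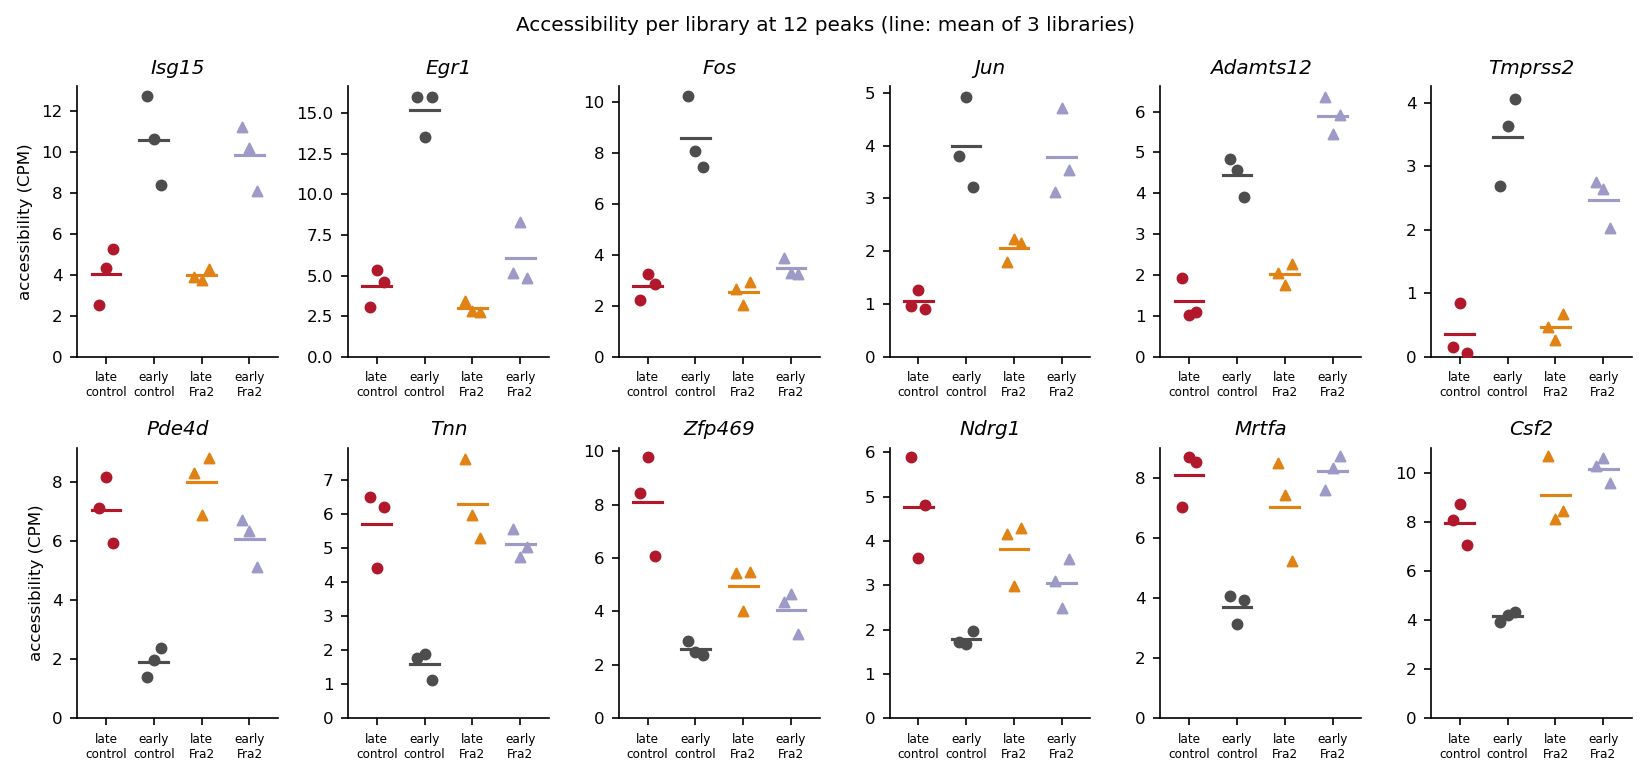
Accessibility in CPM (vertical axes, each from 0) in each library at 12 peaks near the named genes, for late control, early control, late Fra2 and early Fra2 cells. Points are libraries and lines are means of 3. At Isg15 both late groups lie below both early groups; at Pde4d and Tnn the early control libraries alone are low, with early control means of 1.91 and 1.59 CPM.

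Calls at immediate early genes differed with distance in late control cells, with mostly lower calls close to the genes and higher calls farther out. In the genes or within 10 kb, 22 of 364 peaks of the immediate early and serum response list were lower (6.04%) and 1 was higher (0.275%), against 1.08% and 1.88% of all peaks at such distances. Between 10 and 100 kb, 13 of 300 were higher (4.33%, against 2.76% of all peaks there) and 0 were lower. The median log2 fold change was -0.08 near the genes and 0.07 farther out. The near count came to 11 without late control 2, 12 without late control 3, 13 without early control 1 and 11 without early control 2. The distal count was 7 without late control 2, 6 without late control 3 and 2 without early control 2, and those 2 (0.667%) are a smaller share than the 1.29% of all peaks at that distance called higher without that library. With TMM factors from gene-start peaks, 5 near peaks were higher and 19 lower, and 25 distal peaks were higher and 0 lower.

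Egr1, an early growth response transcription factor, showed the clearest loss, with 6 of 15 peaks lower. The peak 0.606 kb from the gene (chr18:34865312-34865813) held 3.06, 5.37 and 4.63 CPM in late controls, against 16, 13.5 and 16 CPM in early controls. The highest late library was under the lowest early one, and the log2 fold change was -1.78 ± 0.18 (adjusted p = 3.93e-09, edgeR). Btg2, an antiproliferative gene that p53 and growth factors induce, also had 6 lower peaks of 19. The peak 0.441 kb from Btg2 (chr1:134074174-134074675) had 7.02, 8.51 and 9.2 CPM late and 25.9, 21.2 and 21.6 CPM early (-1.47 ± 0.18). Nr4a1, an orphan nuclear receptor, had 3.06, 3.8 and 4.81 CPM late and 8.59, 7.4 and 7.84 CPM early at a peak 1.85 kb away (-1.02 ± 0.19). Dusp1, Zfp36, Sgk1 and Hbegf made up the rest of the lower calls. The distal peaks that were higher lay near Dusp5 (4 peaks), Egr2 and Klf6 (2 each), Spry2, Spry4, Sgk1, Klf4 and Phlda1, and Dusp5 also had the 1 higher peak close by. Spry2, an inhibitor of receptor tyrosine kinase signalling, had 6.35, 8.2 and 7.01 CPM in late controls at a peak 49.8 kb away and 3.86, 3.41 and 4.62 CPM in early controls (chr14:105841901-105842402, 0.90 ± 0.18, adjusted p = 0.00215, edgeR).

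The AP-1 family, whose FOS and JUN proteins pair to bind DNA, also had mostly lower calls. Of 292 peaks, 14 were lower (4.79%, against 1.23% of all peaks) and 2 higher (0.685%, against 2.04%), 13 of the lower ones within 10 kb of a gene. The count of lower peaks was 9 without late control 3 and 22 without early control 3. Fos had 6 lower peaks of 28, and the one 1.8 kb away (chr12:85478828-85479329) held 2.24, 3.26 and 2.86 CPM late and 10.2, 8.05 and 7.42 CPM early (-1.63 ± 0.19, adjusted p = 2.34e-07, edgeR). Jun, the usual partner of Fos, had 0.971, 1.27 and 0.914 CPM late and 3.81, 4.93 and 3.22 CPM early at a peak 1.23 kb away (chr4:95047558-95048059, -1.93 ± 0.29). Both genes' libraries separated by time. A Jun peak 13.3 kb away was higher instead (0.69 ± 0.20), with 8.22, 7.3 and 4.81 CPM late and 4.83, 4.06 and 3.08 CPM early, and it was not called without early control 3. Fosb (-0.67), Junb (-0.55) and Mafk (-0.62) had 1 lower peak each. At the 42 gene-start peaks of the family 0 were called, against 3 lower without early control 3.

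Fosl2, the gene targeted in the comparison cells, was not targeted here, and the peak at its start (chr5:32135561-32136062) held 42, 51.8 and 51.7 CPM in late controls and 51.6, 44.6 and 35.4 CPM in early controls. These ranges overlapped, and the log2 fold change was 0.14 ± 0.15 (adjusted p = 0.711, edgeR). Of its 36 peaks 2 were lower, 2.67 kb (-0.89) and 5.8 kb (-1.13) from the gene, the second of which was not called without early control 3. Thy1, the surface protein used in the sort, had 0 of 25 peaks called, and its summed counts came to 195, 197 and 191 CPM late and 194, 185 and 165 CPM early (0.09 ± 0.05). The letters TGANTCA, with any base (N) in the centre, were counted on either strand in the same promoter windows. This form is looser than the AP-1 site, whose centre base is C or G, and the stricter site was not counted. Of windows under a peak that was higher late, 15 of 54 (27.8%) held the looser form. It was in 10 of 118 (8.47%) under a lower peak, 912 of 15246 (5.98%) under a tested peak that was not called and 6.75% of all windows.

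The promoter of Havcr2, which encodes the immune receptor TIM-3, is shown as 1 of the 13 genes with such a window (chr11:46454681-46454930, plus strand, GRCm38.p6, RefSeq). Capitals mark the match to the looser form, which begins 200 bases before the gene start. Its centre base is T, so it is not the stricter AP-1 site.
Havcr2: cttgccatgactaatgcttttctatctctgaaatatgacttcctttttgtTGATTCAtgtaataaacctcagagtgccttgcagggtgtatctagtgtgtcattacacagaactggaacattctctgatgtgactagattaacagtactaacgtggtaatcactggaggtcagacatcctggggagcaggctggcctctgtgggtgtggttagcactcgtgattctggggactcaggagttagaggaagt
The peak over this window (chr11:46454475-46454976) stood at 9.71, 10.3 and 8.89 CPM in late controls and 7.3, 4.72 and 4.34 CPM in early controls, a log2 fold change of 0.76 ± 0.18 (adjusted p = 0.00824, edgeR). It was chosen for display after its values were seen. Only 7 of the 13 peaks were called without early control 3, and the 13 log2 fold changes ran between 0.53 and 1.34.

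Peaks of extracellular matrix genes were called in both directions in late control cells, with more higher than lower calls. Of 885 peaks in the extracellular matrix and collagen list, 36 were higher (4.07%, against 2.04% of all peaks) and 16 lower (1.81%, against 1.23%), with a median log2 fold change of 0.07. Ltbp1, which stores latent TGF-beta in the matrix, had 6 higher peaks of 69, Col15a1, a basement membrane collagen gene, had 5 of 31, and Col4a1 had 4. Tnn, the tenascin-W gene, had 3 higher peaks. The strongest (chr1:160150714-160151215) held 6.5, 4.4 and 6.21 CPM in late controls, against 1.77, 1.89 and 1.12 CPM in early controls, and every late library exceeded the early ones (1.76 ± 0.23, adjusted p = 3.62e-06, edgeR). At Ltbp1 the peak with the largest change (chr17:75211092-75211593) had 6.57, 5.25 and 5.36 CPM late and 3.06, 2.32 and 2.8 CPM early. Of the 16 lower calls, 7 were at Thbs1, the thrombospondin 1 gene, which has 39 peaks. Its gene-body peak (chr2:118117466-118117967) held 3.51, 3.32 and 3.53 CPM late and 7.14, 8.85 and 5.32 CPM early (-1.08 ± 0.19). The 36 higher calls became 21 without late control 1, 13 without late control 2, 21 without late control 3 and 9 without early control 2, where the share of 1.02% is close to the 0.977% of all peaks called higher. The 16 lower calls became 6 without late control 2, 9 without late control 3, 10 without early control 1, 7 without early control 2 and 25 without early control 3.

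Among genes of matrix remodelling, 15 of 382 peaks were higher (3.93%, against 2.04% of all peaks) and 6 lower (1.57%, against 1.23%). Mmp2, Plau and Plaur, for a gelatinase, urokinase and its receptor, were among the genes with higher peaks. Adamts12, a metalloprotease gene, went the other way with 1.94, 1.03 and 1.1 CPM late and 4.83, 4.57 and 3.92 CPM early (chr15:11210914-11211415, -1.76 ± 0.25, adjusted p = 1.31e-05, edgeR). The count of higher peaks was 8 without late control 2, 9 without late control 3 and 9 without early control 2. Of all peaks, 1463, 2499 and 2017 were higher without these libraries. The count of lower peaks was 2 without late control 1, 1 without late control 2 and 3 without early control 3. Of all peaks, 1747, 836 and 3411 were lower without these.

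Fibroblast identity genes had 24 of 928 peaks higher (2.59%, near the 2.04% of all peaks) and 21 lower (2.26%, against 1.23%). The balance depended on the scaling, with 44 higher and 14 lower with TMM factors from gene-start peaks and 30 and 38 with cyclic loess scaling. Among all peaks the first scaling gave 8065 higher and 1915 lower, and loess gave 5503 and 4281. Fn1, the fibronectin gene, supplied 13 of the higher peaks, spread over its 83 peaks with log2 fold changes between 0.54 and 1.40, and 12 of them were also called without early control 3. The Fn1 peak at chr1:71614403-71614904 had 5.3, 4.58 and 5.85 CPM late and 2.25, 1.74 and 3.36 CPM early (1.18 ± 0.23), and one outside the gene at chr1:71583338-71583839 had 15.2, 15.4 and 16.3 CPM late and 9.71, 8.34 and 9.1 CPM early. The lower peaks lay at Fstl1 (4), Vim (3), Prrx1 and Lox, among others. Fstl1, a secreted follistatin-like protein gene, had 2.32, 3.68 and 3.29 CPM late and 7.83, 5.08 and 8.4 CPM early at a peak 44.4 kb away (chr16:37732407-37732908, -1.16 ± 0.21). Higher calls came to 10 without late control 2 and 15 without early control 2, and lower calls to 12, 4 and 10 without late controls 1, 2 and 3 and 9 without early control 2. Hmga2, an architectural chromatin protein of embryonic cells, had 7 higher peaks of 120 and 1 lower. It made up 7 of the 10 higher peaks of the pluripotency list (3.47% of its 288 peaks, against 2.04% of all peaks). The count of the list was 4 without late control 2, 6 without early control 2 and 16 without early control 3.

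Secreted inflammatory and NF-kB genes had 19 of 531 peaks higher (3.58%, against 2.04% of all peaks) and 3 lower (0.565%, against 1.23%). Csf1, the macrophage growth factor gene, had 7 of these, and the peak 6.1 kb away (chr3:107734697-107735198) held 5.9, 6.64 and 6.21 CPM late and 2.84, 3.48 and 3.08 CPM early (1.0 ± 0.19). Csf2, for the granulocyte-macrophage factor, had 8.07, 8.75 and 7.07 CPM in late controls and 3.92, 4.21 and 4.34 CPM in early controls 31 kb from the gene (chr11:54216043-54216544, 0.95 ± 0.18, adjusted p = 0.000877, edgeR). Single peaks were higher near Il1a, Il6, Il33, Ptgs2, Vcam1, Nfkb2 and Relb, whereas Ccl11, the eotaxin gene, had 1.12, 1.39 and 0.792 CPM late and 3.54, 3.7 and 3.5 CPM early 15.6 kb away (-1.70 ± 0.33). The 19 higher calls became 7 without late control 2, 10 without late control 3 and 10 without early control 2.

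Stress response genes had 17 of 483 peaks higher (3.52%, against 2.04% of all peaks) and 2 lower (0.414%, against 1.23%). Ndrg1, a gene that hypoxia and other stresses induce, supplied 7 of the 17. Its start peak (chr15:66928979-66929480) held 5, 4.71 and 4.08 CPM in late controls, against 2.09, 1.6 and 1.68 CPM in early controls (1.32 ± 0.25). A second Ndrg1 peak, 1.21 kb away, held 5.9, 3.62 and 4.81 CPM late and 1.72, 1.67 and 1.96 CPM early (1.43 ± 0.25, adjusted p = 0.000372, edgeR). Asns, the asparagine synthetase gene, had 5.68, 6.27 and 4.45 CPM late and 3.17, 1.81 and 1.26 CPM early 40.8 kb away (1.26 ± 0.23), and Chac1, a glutathione-degrading enzyme gene, Pdk1 and Hspb1 had 1 higher peak each. The 17 became 9 without late control 2, 8 without late control 3 and 10 without early control 2. The ribosomal protein list, included as a reference, had 10 of 377 peaks higher (2.65%, against 2.04% of all peaks) and 1 lower (0.265%, against 1.23%). This reference list thus leaned the same way as the stress list. Its 10 higher peaks became 5 without late control 1, 3 without late control 2 and 3 without early control 2.

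In the Wnt pathway, 21 of 678 peaks were higher (3.1%, against 2.04% of all peaks) and 6 lower (0.885%, against 1.23%). Tcf7l2, a transcription factor that Wnt signals act through, had 5 higher and 1 lower peak, and the one 28.9 kb away (chr19:55712671-55713172) held 13.4, 14.5 and 13.8 CPM late and 7.73, 6.82 and 6.44 CPM early (0.97 ± 0.16, adjusted p = 0.000146, edgeR). Dkk2, a secreted Wnt modulator, had 4 higher peaks. The 21 became 7 without late control 2, 7 without late control 3 and 9 without early control 2. Without late control 3, the 7 (1.03%) are a smaller share than the 2499 of all 206349 peaks called higher. In Fra2 cells 0 of the 678 were higher and 15 lower with time, against 0.393% and 1.09% of all peaks. Fzd10, a Wnt receptor gene, fell over its summed counts to 8.46, 7.26 and 7.3 CPM in late controls, against 15.1, 16.7 and 18.4 CPM in early controls (-1.11 ± 0.13). Of the senescence and cell cycle inhibitor genes, 11 of 436 peaks were lower (2.52%, against 1.23% of all peaks) and 6 higher (1.38%, against 2.04%). With TMM factors from gene-start peaks, 9 of the 436 were lower and 15 higher. Under that scaling 1915 of all 206349 peaks were lower and 8065 higher. Cdkn1a and Gadd45g had 4 lower peaks each. Cdkn1a, the p21 gene, had 2.84, 4.22 and 2.19 CPM late and 5.8, 6.31 and 7.56 CPM early (chr17:29097252-29097753, -1.05 ± 0.22). The 11 became 7, 5 and 4 without late controls 1, 2 and 3 and 5 without early control 2. Hox cluster genes had 2 of 310 peaks called in each direction (0.645%, against 2.04% of all peaks higher and 1.23% lower).

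**Figure D2:**
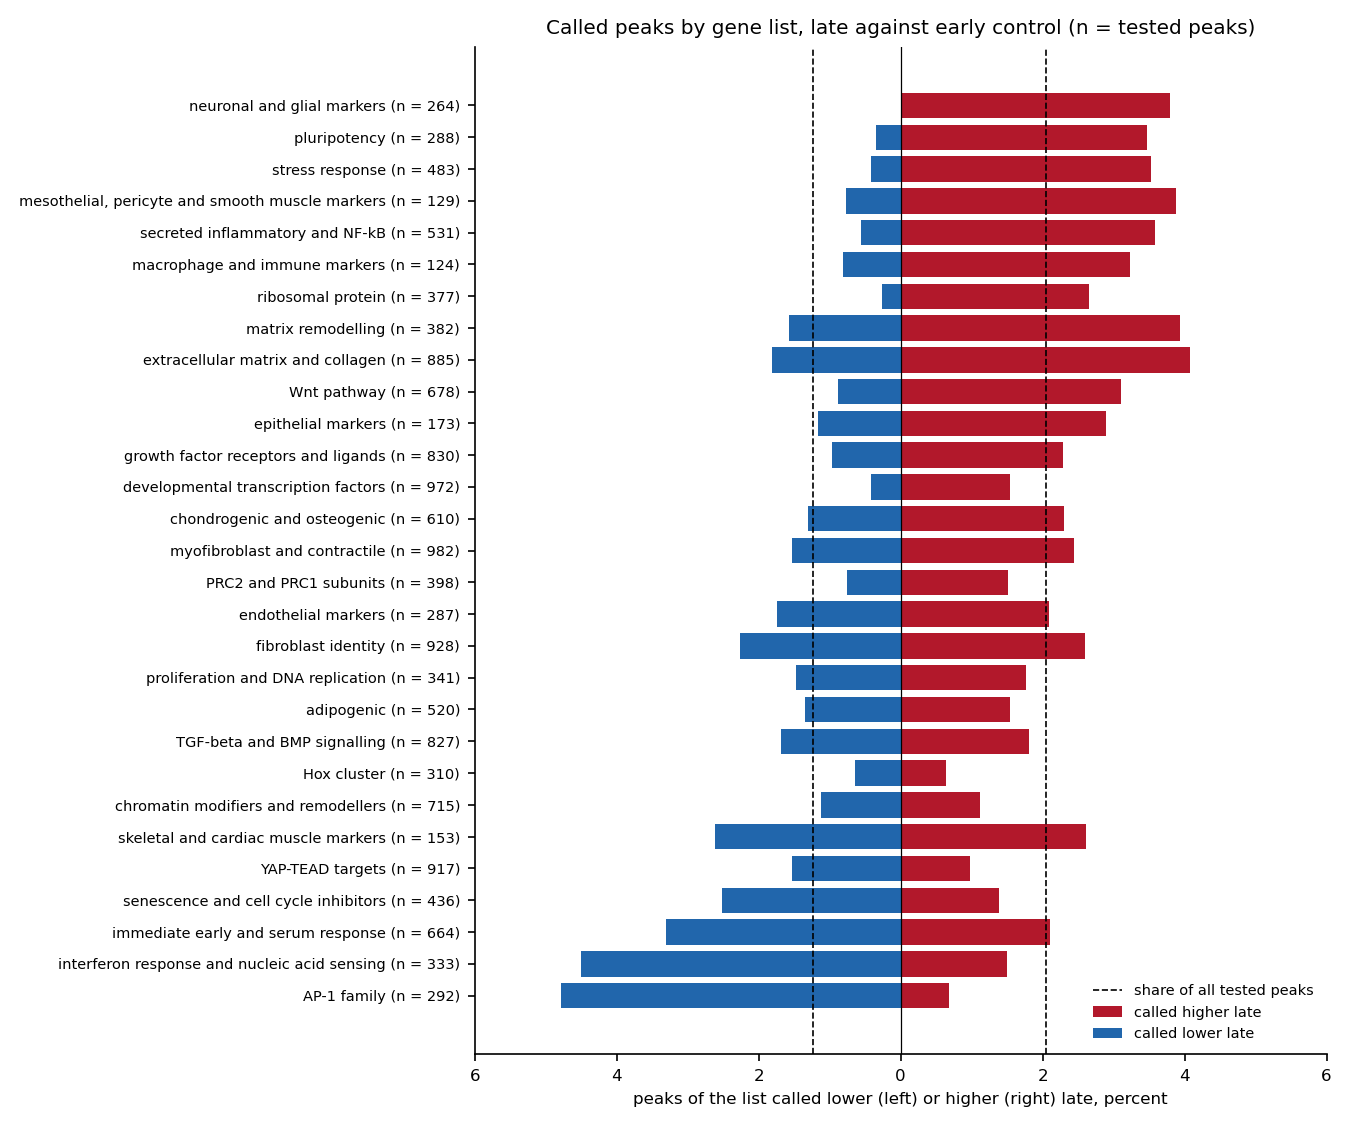
Share of the tested peaks of each of 29 gene lists that was called lower (left, blue) or higher (right, red) in late than in early control cells, in percent, with the number of peaks of each list in brackets. The dashed lines mark the shares of all tested peaks, 1.23% and 2.04%. AP-1 family and interferon lists reach 4.79% and 4.5% lower, and the extracellular matrix list reaches 4.07% higher.

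The 1 Mb window with the most lower peaks lay on chromosome 11. Of 2550 windows of 1 Mb with a tested peak, the median held 1 lower peak, whereas chr11:119000001-120000000 held 43 of 290 (14.8%). The window with the next highest count, chr4:156000001-157000000, which includes Isg15, held 12 of 48, a larger share (25%). Most of the lower peaks on chromosome 11 lay at Rnf213, which encodes a very large ubiquitin ligase, and at Endov, which encodes an endonuclease that cuts RNA at inosine. The block was singled out after its values were seen, and its edges are the first and last lower peak of the 2 genes, so that few lower calls just beside it follow from how it was drawn. From chr11:119387552 to 119515443, over 128 kb, 39 of 72 tested peaks were lower in late control cells and 0 were higher, with a median log2 fold change of -1.15. Of the nearest 30 tested peaks before this stretch and 23 after it, 0 were called in control cells, and their medians were -0.15 and -0.06. The peaks counted lie between -141 and 248 kb of the start of Rnf213, and the other lower calls of the 1 Mb window lay farther away. Summed over the block, late controls had 178, 177 and 187 CPM and early controls 294, 316 and 353 CPM, whereas the 30 peaks before it summed to 145, 162 and 171 CPM late and 165, 160 and 184 CPM early. The groups did not overlap in the block and overlapped before it. The count of lower peaks at the 2 genes was 22 without late control 2 and 34 without early control 3.

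Over summed counts, Rnf213 had 133, 128 and 137 CPM in late controls and 207, 215 and 290 CPM in early controls (log2 -0.82 ± 0.09, adjusted p = 3.06e-06, edgeR), with 27 of its 51 peaks lower. Endov had 12 of 23 peaks lower (-0.66 ± 0.06), and its start peak (chr11:119490530-119491031) held 2.69, 3.56 and 1.77 CPM late and 6.81, 8.49 and 5.88 CPM early. The same block was lower with time in the Fra2 cells, which share no library with the controls: 45 of the 72 peaks were lower there, and the sums were 134, 153 and 149 CPM late and 292, 289 and 266 CPM early. In the Ezh2 inhibitor libraries the block summed to 245, 288 and 281 CPM. Of windows ranked by higher calls, chr1:71000001-72000000 around Fn1 came first with 17 of 167 peaks.

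**Figure D3:**
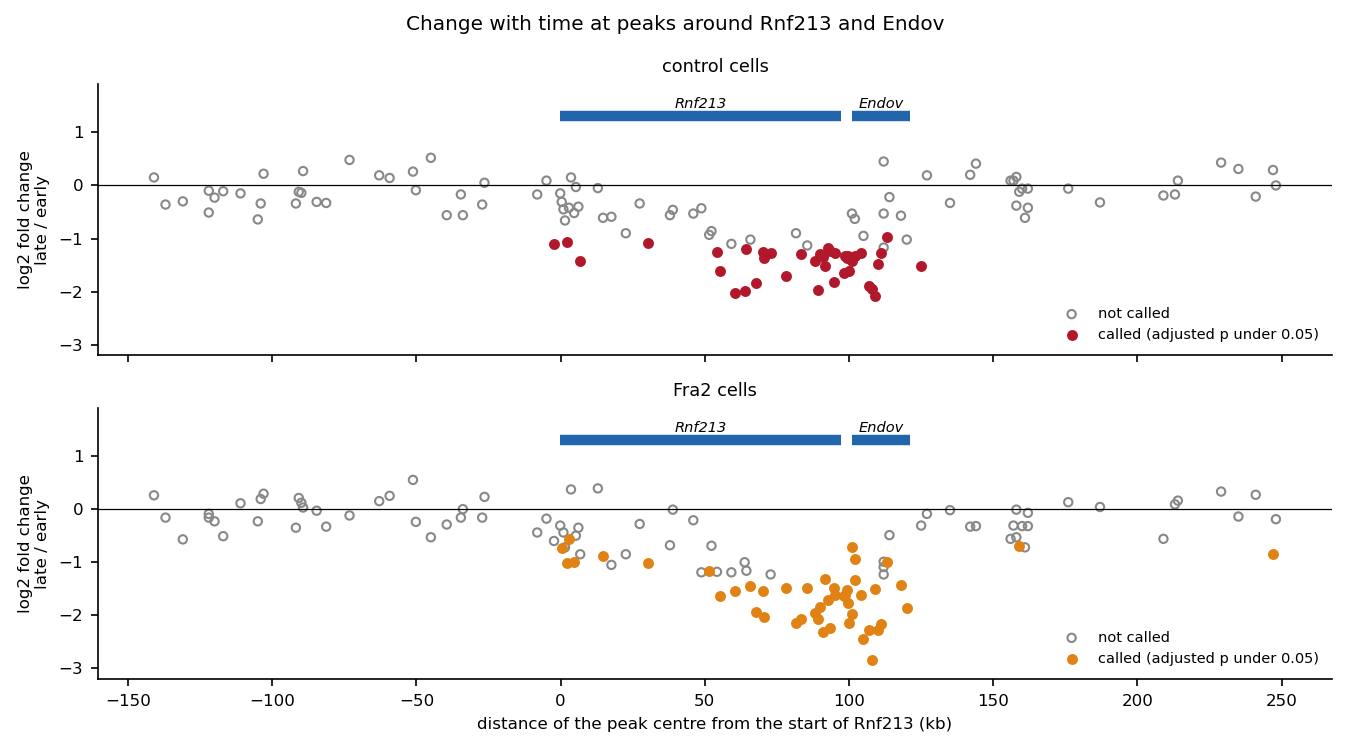
Log2 fold change of late over early cells (vertical axes) at peaks around Rnf213 and Endov, by distance of the peak centre from the start of Rnf213 in kb, in control cells (upper panel) and Fra2 cells (lower panel). Filled points were called at an adjusted p under 0.05 and bars mark the genes. In both panels the called peaks lie within the 128 kb stretch, apart from 2 called peaks to its right in Fra2 cells.

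Outside the lists, the largest single loss among the named peaks was in the body of Tmprss2, a gene of a transmembrane serine protease. This peak (chr16:97565374-97565875) had 0.149, 0.845 and 0.0609 CPM in late controls, against 2.68, 3.63 and 4.06 CPM in early controls. Late controls 1 and 3 lay below the level of 3 counts, so the fitted log2 fold change of -3.19 ± 0.44 is imprecise, and Tmprss2 also had 3 higher peaks among its 27. Tmem132c and Tmem132d, related transmembrane protein genes, lost accessibility at 7 of 18 and 6 of 11 peaks. Summed counts of Tmem132d were 19.6, 15.3 and 15.9 CPM late and 29, 31.3 and 43.5 CPM early (-1.0 ± 0.12, adjusted p = 2.24e-05, edgeR). Lower gene-body or distal peaks with log2 fold changes between -2.14 and -1.93 were near Xkr4, Arhgap10, Bbs9, Svep1, Syne1, Grik1, Nampt and Frmpd1, and each had under 1.6 CPM in every late library. Id1, an inhibitor of helix-loop-helix factors that BMP signals induce, had 5.68, 6.09 and 6.7 CPM late and 12.8, 10.7 and 10.5 CPM early near its start (chr2:152738016-152738517, -0.89 ± 0.16). Ccn1, a matricellular YAP target, had 10.4, 13 and 12.1 CPM late and 22.8, 24 and 16.1 CPM early (-0.84 ± 0.16). A lower Sox17 peak, by contrast, rested on early control 3 alone, which held 15.8 CPM where the other 5 libraries held 1.28 to 2.54 CPM, and its log2 fold change of -1.82 was -0.27 without that library.

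Among higher peaks, the largest named change was in Pde4d, for a phosphodiesterase that degrades cyclic AMP. The peak (chr13:108834517-108835018) had 7.1, 8.14 and 5.91 CPM in late controls, against 1.4, 1.96 and 2.38 CPM in early controls (1.97 ± 0.23, adjusted p = 1.58e-07, edgeR). Spice1, a centriole and spindle protein gene, had 3.73, 4.22 and 4.14 CPM late and 1.23, 1.09 and 0.56 CPM early (1.95 ± 0.27). A peak 3.82 kb from Zfp469, a zinc finger gene whose human form is mutated in brittle cornea syndrome, had 8.44, 9.77 and 6.09 CPM late and 2.9, 2.47 and 2.38 CPM early (1.62 ± 0.21). The groups did not overlap at these 3 peaks, which the rule for naming them required. Mrtfa, a coactivator of serum response factor that actin controls, had 7.02, 8.69 and 8.53 CPM late and 4.08, 3.12 and 3.92 CPM early 2.36 kb from the gene (1.13 ± 0.20). Runx1, a factor active in mesenchyme, and Ezh2, the catalytic subunit of PRC2, had gene-body peaks that rose by log2 0.69 and 0.78. Over summed counts, among genes with at least 3 peaks that met the rule for named genes, the largest increases were small, with log2 fold changes between 0.55 and 0.78 at Armh2, Tcp10a, Ccdc185, Tmbim7, Cdhr5, Mlc1, Crybb1, Tigit, Vmn1r43 and Nmrk2.

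Gene starts had a smaller share of higher calls than other positions. Of 26318 gene-start peaks, 84 were higher (0.319%) and 191 lower (0.726%), whereas peaks in gene bodies were called higher at 2.17%, those within 10 kb at 2.44% and those between 10 and 100 kb at 2.76%. Lower calls took 1.16% of gene-body peaks and 2.16% of peaks beyond 100 kb of a gene. Without early control 3 the gene-start counts were 96 higher and 408 lower, and without late control 2 they were 29 and 71. Which direction had more calls at gene starts depended on the scaling, with 229 higher and 155 lower with TMM factors from gene-start peaks and 118 and 802 with cyclic loess scaling. The counts were also 49 higher and 119 lower without late control 3, 66 and 95 without late control 1, 141 and 262 without early control 1 and 42 and 92 without early control 2. The median change followed the level of a peak: over 5 bins of rising accessibility it ran from -0.13 to 0.07 with all libraries, but from 0.04 to -0.03 without early control 3, so the slope turned when that library was left out. The deposited peak lists of single libraries come from the same libraries as the counts, so their overlap with called peaks follows in part from the calls. Of all tested peaks, 62, 76.8 and 77.2% overlapped a listed peak of late controls 1 to 3. For early controls 1 to 3 the shares were 81.9, 69 and 35.4%. Of the 4218 higher peaks, 96.5, 99.2 and 99% overlapped a listed peak of late controls 1 to 3, against 90.9, 80 and 38.3% for early controls 1 to 3. Of the 2548 lower peaks, 38.1, 57.1 and 60% did so in late controls and 95.7, 91.8 and 52.2% in early controls. The lists held 160830, 209512 and 215813 peaks in late controls and 234049, 188318 and 114359 in early controls, and early control 3 had the shortest.

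**Figure D4:**
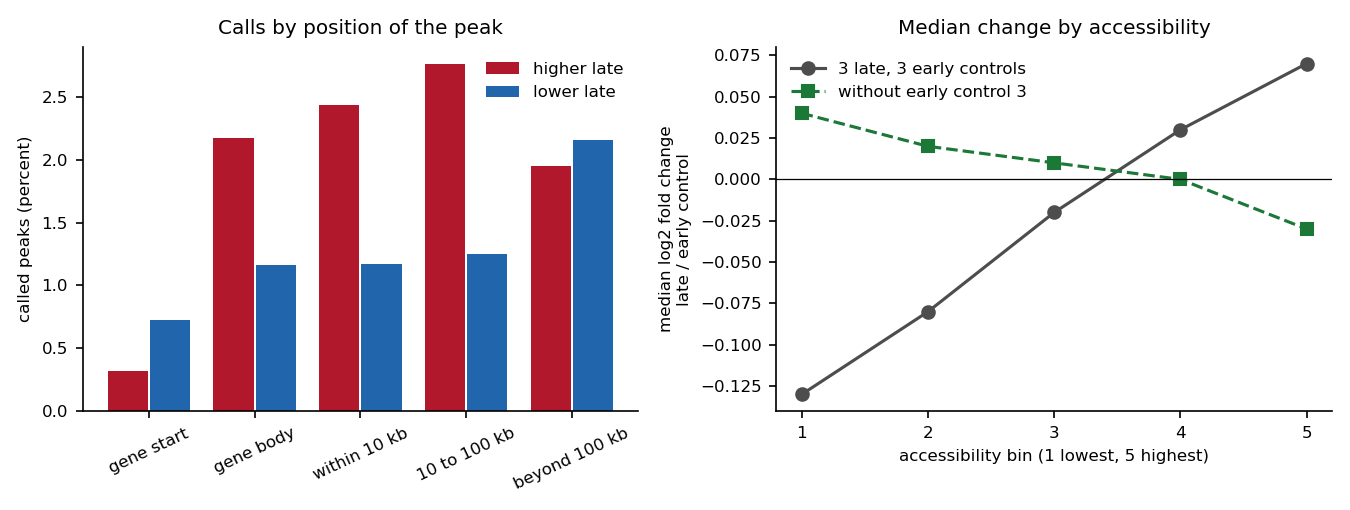
Left, percent of tested peaks called higher (red) or lower (blue) in late than in early control cells, by position relative to the nearest protein-coding gene. Right, median log2 fold change of late over early control by accessibility bin, with all 6 libraries (circles) and without early control 3 (squares). Gene starts have 0.319% higher and 0.726% lower calls, and the slope by accessibility turns when early control 3 is left out.

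The cells with Fra2 guides passed through the same interval, and the time effect in them was tested in the same fit. They had 810 higher (0.393%) and 2252 lower (1.09%) peaks. Of the lower peaks of control cells, 496 were also lower with time in Fra2 cells, 19.5% of the control list and 22% of the Fra2 list. Of the higher peaks of control cells, 120 were also higher in Fra2 cells, 2.84% of the control list and 14.8% of the Fra2 list. Opposite calls were few, at 6 and 1 peaks. Across 206349 peaks, which share their libraries and so are not independent, the log2 time effects correlated at a Pearson r of 0.29. At the peaks higher in control cells, median levels were 7.22 CPM late and 4.14 CPM early in control cells, against 7.82 CPM late and 7.01 CPM early in Fra2 cells. These peaks were chosen for a higher level late than early in control cells, so a low early control median follows in part from that choice.

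The difference of the time effects itself, Fra2 minus control, was called at 193 peaks (0.0935%), 169 negative (0.0819%) and 24 positive (0.0116%). Of the 169, 134 were among the peaks that were higher with time in control cells and 40 were called lower with time in Fra2 cells. The difference is computed from these same 2 time effects, so both overlaps follow in part from how it is built. At an unadjusted p under 0.05, 19740 peaks passed. The 193 came to 579, 71 and 531 without early controls 1, 2 and 3, to 117, 22 and 68 without late controls 1, 2 and 3, to 39 and 38 without early Fra2 1 and 2, and to 101, 31 and 29 without late Fra2 1, 2 and 3.

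Some interferon genes had lower peaks with time in both kinds of cell. Of the 333 peaks of that list, 15 were lower and 5 higher in control cells (median -0.06), against 21 lower and 0 higher in Fra2 cells (median -0.04), and the 4 Isg15 peaks were called in both. The Isg15 start peak averaged 3.98 CPM in late Fra2 cells and 9.82 CPM in early Fra2 cells, a log2 fold change of -1.32 that is close to the -1.40 of the control cells. Zbp1 averaged 2.18 CPM late and 7.68 CPM early in Fra2 cells (-1.82). Fn1 kept 9 of its 13 higher peaks in Fra2 cells. Of all tested peaks, 2.04% were higher and 1.23% lower with time in control cells, against 0.393% and 1.09% in Fra2 cells. Of the 664 immediate early peaks, 14 were higher and 22 lower in control cells, against 5 higher and 5 lower in Fra2 cells. The values differed in size, but no difference passed the test at the peaks named: the Egr1 peak averaged 3 CPM late and 6.11 CPM early in Fra2 cells (-0.98, difference 0.79, adjusted p = 0.271, edgeR), and the Fos peak 2.54 CPM late and 3.47 CPM early (-0.47, not called; difference 1.16, adjusted p = 0.0748). Pde4d averaged 7.99 CPM late and 6.04 CPM early in Fra2 cells, and there the difference of -1.57 passed the test (adjusted p = 0.0119, edgeR).

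**Figure D5:**
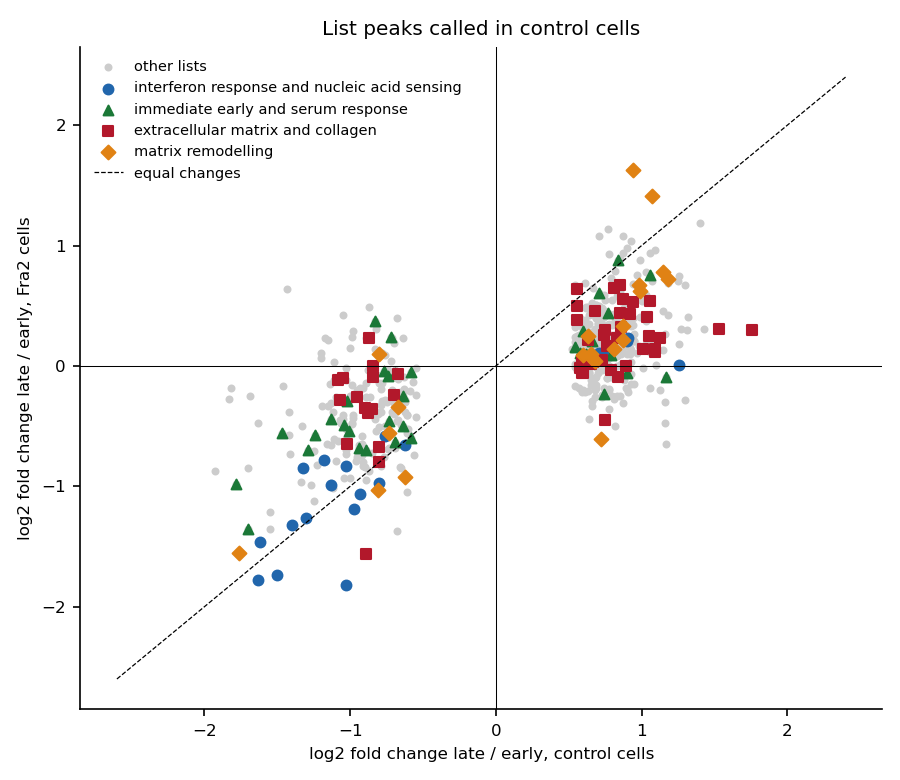
Log2 fold change of late over early cells at each list peak called in control cells, with control cells on the horizontal and Fra2 cells on the vertical axis; colours mark 4 lists and the dashed line marks equal changes. The Isg15 start peak lies near the line at lower left (-1.40 in control and -1.32 in Fra2 cells), whereas the Irf2 peak (1.26 and 0.01) and the Tnn peak (1.76 and 0.30) lie below it.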

How the data were processed

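Accessibility was measured by Omni-ATAC-seq, and this account uses the 3 late and 3 early control libraries, with the Fra2 and Ezh2 inhibitor libraries in the common fit. The authors deposited raw counts of reads at each consensus peak (206367 peaks, of which 206366 are 502 bp wide; 0 count columns were unused). The 15 deposited peak lists hold per peak a fold enrichment, which is a ratio over background, a caller score, and −log10 values of p and q. The deposited list of consensus peaks holds a score of undescribed origin and served only to check positions. Peaks were called with MACS2 and the build is mm10, per the submitters' processing notes. The aligner, the read shift that ATAC-seq counts depend on, the treatment of duplicates, the counting tool and the making of consensus peaks were not given in the sources used here.

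Counts were tested with the quasi-likelihood F-test of edgeR 4.0.16 (R 4.3.3), with TMM factors, the default filter (18 peaks removed), 1 mean per group over all 15 libraries (10 residual degrees of freedom) and Benjamini-Hochberg adjustment over all tested peaks or genes. CPM are counts per mega reads in peaks after TMM. A level of 3 counts was 0.161 to 0.42 CPM in the control libraries, which covers counting error only. Peaks were assigned to the nearest of 21631 protein-coding genes of RefSeq GRCm38.p6 up to 100 kb from the peak centre, which gave a gene to 88.7% of peaks; gene-start peaks lie within 1 kb of the start, or of either end for the genes without an entry in the promoter table, which covers 79.9%. Motifs were searched in 250-base windows of that table. The scripts were tested on simulated counts.

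The comparison, the 29 gene lists (948 of 951 genes matched) and the rules for named genes were chosen with earlier results of these data known. Named were the 12 peaks with the largest change per direction, 10 gene-start peaks and 10 genes with at least 3 peaks by summed counts per direction, the called peak with the smallest p per list and direction, and the peaks of Fosl2 and Thy1. The first 3 groups required no overlap between late and early libraries and the same call without early control 3, and the peak rules a mean of at least 2 CPM in the higher group. Other peaks that are named, including further peaks of list genes, the chromosome 11 block, the 1 Mb windows and the promoters shown, were chosen after their values were seen. Not every member of the lists is reported here. Alternatives were RLE factors, TMM factors from gene-start peaks, cyclic loess scaling (limma 3.58.1), DESeq2 1.42.0, other filters, the 6 control libraries alone, a replicate block, and leaving out each library.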

Additional observations from a re-analysis of the deposited data

Results flagged for a closer look

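At 9 of the named peaks the change with time differed between Fra2 cells and control cells, by the test of that difference in the common fit (edgeR, adjusted over all peaks). Differences are given as Fra2 minus control on the log2 scale. The largest was at the start of Olfr654, an odorant receptor gene, at -1.97 (adjusted p = 5.95e-05, edgeR). That peak had 5.53, 5.01 and 5.18 CPM in late controls and 2.63, 2.39 and 2.66 CPM in early controls, whereas Fra2 cells averaged 4.75 CPM late and 9.11 CPM early (-0.94, called lower). The difference was -1.76 at Spice1, -1.61 at 3110040M04Rik, -1.57 at Pde4d and -1.45 at Tnn. It was -1.33 at Zfp469 and -1.33 at Mrtfa, and at the distal Csf2 peak it was -1.1. At these 7 peaks control cells rose with time, and in Fra2 cells no change with time was called. Id1 went the other way, with a difference of 1.12: control cells fell with time, and Fra2 cells averaged 7.51 CPM late and 6.33 CPM early. These peaks were named for their change in control cells, so the differences are not an unselected sample.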

How the results depend on the processing

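Deviations of late and early controls with the same replicate number correlated at -0.192, 0.044 and -0.111, against -0.113 to 0.204 for different numbers. These deviations are taken from means of 3 libraries and are not independent, so whether cultures were shared cannot be told from them. With the replicate block, 4660 peaks were higher and 2670 lower, 446 genes were higher and 397 lower, and 253 differences were called; the block moved no count past 1.5 times. With TMM factors from gene-start peaks 8065 peaks were higher, 1258 genes were higher and 172 lower, and 427 differences were called. Cyclic loess scaling gave 4281 lower peaks and 584 differences, and DESeq2 gave 366 differences. A fit of only the libraries compared gave 688 higher and 445 lower peaks, 3 higher and 24 lower genes, and 67 differences; it has fewer libraries from which to estimate the spread. Leaving out 1 library at a time gave 1463 to 5456 higher and 836 to 3411 lower peaks, 194 to 705 higher and 150 to 655 lower genes, and 22 to 579 differences. The cause of these shifts was not tested. Of the 125 named peaks and genes, 117 were called, and under the 15 alternatives 0 changed direction. Lost calls came to 150, 47 of them with only the 6 control libraries and 29 without late control 2, and 0 under loess, RLE, the block or other filters. Apart from Fosl2 and Thy1, these peaks and genes were named for being called, many also for separated groups. That 0 changed direction follows in part from this choice. Depth limits peaks of low level most: early control 3 held 6.75 M reads in peaks, and 3 counts there are 0.42 CPM.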
